A study of Mus musculus with 18 samples.

Results

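The comparison described here asks whether the genotype difference of ERBOE against PRCre is the same in endometriotic lesions as in eutopic endometrium, the endometrium in its normal place. It is the interaction of genotype and tissue, (ERBOE lesions minus PRCre lesions) minus (ERBOE eutopic minus PRCre eutopic), and it used 12 of the 18 arrays of the series, 3 in each of 4 groups. ERBOE is the label of mice that overexpress ERβ, oestrogen receptor beta, and the control mice were PRCre/+, a Cre driver line. ERBOE lesions grew from an endometrial fragment of ERBOE mice, punched at 2 mm and implanted, 1 to a mouse, in intact wild-type C57BL/6J hosts of 8 weeks. PRCre lesions came from PRCre/+ fragments in hosts of the same kind. ERBOE eutopic and PRCre eutopic endometrium came from ERBOE and PRCre/+ mice of 8 weeks that had received a wild-type C57BL/6J fragment. All 4 groups were collected at estrus 4 weeks after surgery. Each array held RNA of 3 animals pooled, 9 animals a group.

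The design sets limits on what the interaction measures. Lesion and eutopic samples came from different animals by this account, and the 2 kinds of sample differ in site and also in the genotype of the host, since host cells in every lesion are wild type while the whole mouse carries the alleles in the eutopic groups. PRCre lines carry Cre recombinase at the locus of Pgr, the progesterone receptor gene, so recombination follows Pgr expression. The titles decided the groups, although the source field of ERBOE lesions and ERBOE eutopic endometrium speaks of mice without the disease, and although the design text for the eutopic groups names lesions as the tissue harvested and eutopic endometria as the tissue pooled. The p-values measure the spread between pools of 3 animals.

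Oestrogen acts in the uterus through 2 nuclear receptors, alpha and beta, encoded by Esr1 and Esr2, which bind oestrogen response elements in DNA and also act at AP-1 sites through Fos and Jun proteins. In endometriosis, endometrial tissue grows outside the uterus, and oestrogen receptor beta is known to be abundant in lesions of patients. An implanted fragment is also populated by vessels, immune cells and connective tissue of its host, so whole-lesion RNA holds host cells as well as the graft.

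On the 12 arrays the 75th percentile signal ran from 511.8 to 740, and 58.4% to 74.2% of probes were well above background. Arrays of 1 group correlated at 0.942 to 0.969. The arrays lay on 3 slides, each slide being also 1 scan, and slide 2 was the only one with all 4 groups. Endometrial markers were present throughout: all 25 epithelial markers tested were above background on every array, and 19 or 20 of 20 stromal markers were. Some arrays stood apart within their group. PRCre lesion replicate 2 had the highest mean of T cell, B cell and interferon genes of the PRCre lesions and a mean of adipocyte markers near that of ERBOE lesions. PRCre eutopic replicate 1 had the lowest epithelial mean (0.77, against 2.97 and 2.48 on the other PRCre eutopic arrays). It was also lowest for oestrogen-induced genes (1.14, against 3.78 and 3.05) and interferon genes (0.07, against 2.22 and 2.06). PRCre eutopic replicate 2 had the highest mean of TNF and NF-kB response genes (-0.04, against -2.37 and -2.37). ERBOE eutopic replicate 3 had the highest cell-cycle mean (1.25, against -1.44 and -0.96).

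No feature passed for the interaction. Levels are log2 signal minus the log2 75th percentile of the array, and limma, a linear model with a moderated spread, gave 0 of 33468 features (0%) an adjusted p under 0.05, with a smallest adjusted p of 0.99997. At an unadjusted p under 0.05 there were 579 features (1.73%), of which 309 were positive (0.923%) and 270 negative (0.807%). A positive interaction means that ERBOE minus PRCre was larger in lesions than in eutopic endometrium. The median standard error of an interaction was 0.55, and the middle 90% of interactions lay between -0.92 and 1.02 with a median of -0.06. Neither of the genotype differences it combines had a call in limma either: 0 features passed (0%) in lesions and 0 (0%) in eutopic endometrium, with 1480 (4.42%) and 998 (2.98%) at an unadjusted p under 0.05 and smallest adjusted p of 0.0772 and 0.491. These unadjusted shares, and that of the interaction, lie below what evenly spread p-values would give at that threshold. The genes below are therefore given by their values with limma standard errors, and none is a call.

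Genotype differences in the 2 tissues tended to share their sign. Over the 33468 features the lesion and the eutopic difference correlated at 0.294 (Pearson) and 0.321 (Spearman), a description across features that share arrays, and 62.6% had the same sign. The 2 differences share no array, but they share slides. In 267 features (0.798%) the 3 ERBOE arrays lay above the 3 PRCre arrays in both tissues, and in 201 (0.601%) below in both. The reverse case was rarer: 27 features (0.0807%) had ERBOE above PRCre in lesions and below it in eutopic endometrium, and 24 (0.0717%) had the opposite. Of these, 14 and 10 were well above background on all 12 arrays.

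**Figure D1:**
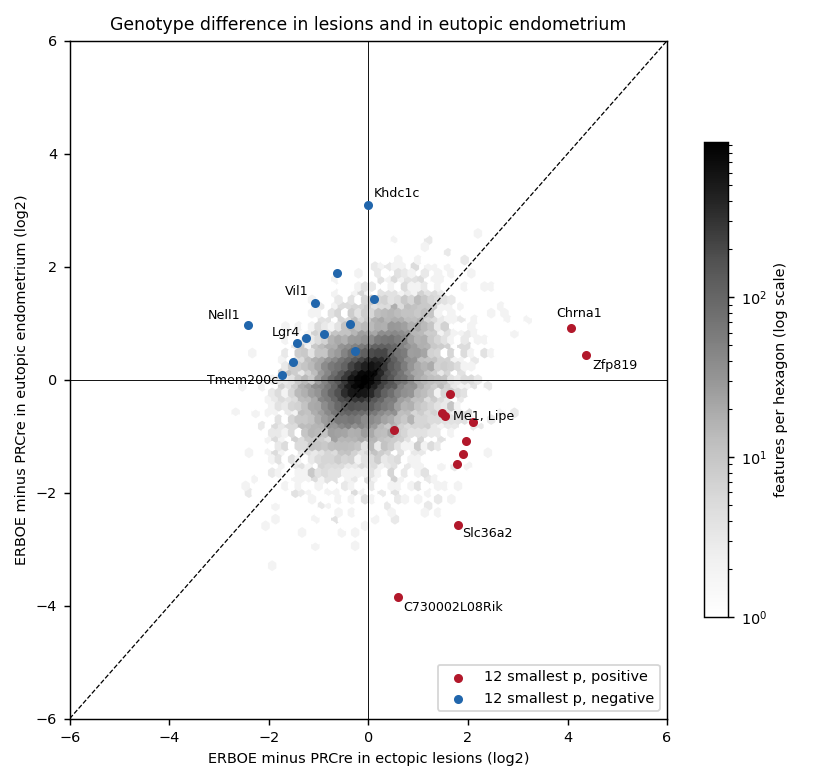
ERBOE minus PRCre difference of every feature in lesions (x axis, log2) against eutopic endometrium (y axis, log2), with darker hexagons holding more features on a log scale. The dashed line marks equal differences. Red and blue points are the 12 positive and 12 negative interactions of smallest p. Only genes with a symbol and detection on 3 arrays of a group entered. The points lie away from the dashed line, from C730002L08Rik at 4.43 to Nell1 at -3.39.

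The receptor genes themselves did not stand out. Esr2, the gene of oestrogen receptor beta, read 2.13, 2.09 and 2.39 in ERBOE lesions, against 2.52, 2.39 and 2.46 in PRCre lesions. In eutopic endometrium it read 2.76, 2.43 and 2.17 in ERBOE, against 2.53, 2.15 and 2.63 in PRCre. ERBOE lesions read at or below PRCre lesions, and the eutopic groups overlapped. The Esr2 interaction was -0.27 ± 0.28 (SE, 3 arrays a group). The labels do not describe the overexpression construct, so whether these Esr2 probes read it is unknown and they do not check the label. Esr1 had an interaction of -0.27 ± 0.47, and Pgr of -0.63 ± 0.83. Of 23 steroid receptor and coregulator genes tested, 7 were positive and 16 negative, with 0 at an unadjusted p under 0.05 and a median of -0.20, against -0.06 over all features. Among them the coactivator gene Ncoa2 was at -0.33, the corepressor gene Nrip1 at 0.27 and the oestrogen-related receptor gene Esrrb at 0.56, the last near background.

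Of the genes above background on all 12 arrays, the positive interaction of smallest p was that of Me1, which encodes cytosolic malic enzyme, a source of NADPH for fatty acid synthesis. Me1 read 3.14, 3.47 and 3.13 in ERBOE lesions, against 2.33, 1.38 and 1.60 in PRCre lesions. In eutopic endometrium it read 0.60, 0.36 and 0.61 in ERBOE, against 0.73, 1.17 and 1.43 in PRCre. All ERBOE arrays were above the PRCre arrays in lesions and all were below them in eutopic endometrium, with no overlap in either tissue. The lesion difference was 1.47 ± 0.28 and the eutopic difference -0.59 ± 0.28, so the interaction was 2.06 ± 0.39, a 4.17-fold ratio of the 2 ratios. A second Me1 probe gave 2.56, the value within slide 2 was 2.11, and over the alternatives the interaction ran from 1.84 to 2.56.

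Promoters of Me1 and 3 other leading genes are printed, leaving out another each of Me1 and Lipe that held no motif searched. Those printed were chosen for ERBOE on opposite sides of PRCre in the 2 tissues (Me1, Lipe, Vil1) or for an AP-1 site (Me1, Chrna1). They are RefSeq sequences of GRCm38.p6, 250 bases before to 50 after a transcript start, 5′ to 3′, with the AP-1 site of Me1 and Chrna1 in capitals; those of Lipe and Vil1 held none of the motifs searched.
Me1 chr9:86695865-86696164 (minus strand): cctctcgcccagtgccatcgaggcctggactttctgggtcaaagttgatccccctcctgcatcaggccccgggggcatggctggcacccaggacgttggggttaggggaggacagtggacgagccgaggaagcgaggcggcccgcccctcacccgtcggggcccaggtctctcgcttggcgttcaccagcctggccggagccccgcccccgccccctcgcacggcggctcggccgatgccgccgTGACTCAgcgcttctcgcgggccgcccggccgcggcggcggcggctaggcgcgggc
Lipe chr7:25395938-25396237 (minus strand): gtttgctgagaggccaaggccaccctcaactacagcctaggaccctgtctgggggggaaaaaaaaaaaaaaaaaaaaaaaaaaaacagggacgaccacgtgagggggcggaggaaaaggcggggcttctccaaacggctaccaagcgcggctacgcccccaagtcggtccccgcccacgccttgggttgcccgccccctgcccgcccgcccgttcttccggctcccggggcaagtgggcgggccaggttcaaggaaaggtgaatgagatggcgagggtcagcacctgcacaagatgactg
Vil1 chr1:74409134-74409433 (plus strand): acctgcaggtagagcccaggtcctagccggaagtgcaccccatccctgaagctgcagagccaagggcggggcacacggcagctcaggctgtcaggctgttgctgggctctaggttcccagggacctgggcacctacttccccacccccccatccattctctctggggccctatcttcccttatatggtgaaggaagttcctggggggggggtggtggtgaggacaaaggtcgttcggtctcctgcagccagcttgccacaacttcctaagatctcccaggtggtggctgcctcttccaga
Chrna1 chr2:73580289-73580588 (minus strand): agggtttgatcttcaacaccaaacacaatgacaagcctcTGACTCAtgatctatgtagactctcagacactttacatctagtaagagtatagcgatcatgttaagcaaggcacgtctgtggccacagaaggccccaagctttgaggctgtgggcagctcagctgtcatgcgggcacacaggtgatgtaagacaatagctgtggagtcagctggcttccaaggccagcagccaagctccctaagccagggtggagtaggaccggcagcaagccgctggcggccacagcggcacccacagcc
The search covered both strands for 3 motifs: TGANTCA for AP-1, GGTCA followed after 3 bases by TGACC for the oestrogen response element, and AGGTCA followed after 1 base by AGGTCA for the direct repeat bound by PPAR receptors. Of the 30 genes named apart from the lists, 17 had a RefSeq promoter, and AP-1 was found in 2 of them, Me1 and Chrna1. A gene counted if any of its promoters held the motif, while the shares that follow are of single promoters, an unlike measure. Among all 32851 promoters 7.81% held the AP-1 motif, 0.07% the oestrogen response element and 0.0396% the direct repeat, and none of the 17 genes held either of the last 2. A match of letters is a description and not a binding site.

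Several other positive genes are known from fat and lipid metabolism. Slc36a2, a proton-coupled amino acid transporter gene, read 1.05, 0.57 and 1.19 in ERBOE lesions, against -1.06, 0.26 and -1.75 in PRCre lesions. In eutopic endometrium it read -3.31, -3.60 and -5.60 in ERBOE, against -1.26, -2.10 and -1.41 in PRCre. Its interaction was 4.37 ± 1.17, with the groups apart in both tissues and 1 ERBOE eutopic array not above background. Lipe, the gene of hormone-sensitive lipase, read -0.74, -1.02 and -0.71 in ERBOE lesions, against -2.75, -1.33 and -2.97 in PRCre lesions. In eutopic endometrium Lipe read -3.67, -3.65 and -4.36 in ERBOE, against -3.46, -2.84 and -3.43 in PRCre. Its 2.18 ± 0.59 came with groups apart in opposite directions, the PRCre lesion array nearest to ERBOE being replicate 2. Pnpla3, a lipase-like gene of lipid droplets, stood at 3.06 ± 0.86, and Gys2, the liver-type glycogen synthase gene, at 2.85 ± 0.67. Lncbate1, a long noncoding RNA described in brown fat, stood at 3.27 ± 0.78. Gys2 was below background on all 6 eutopic arrays and Lncbate1 on all but PRCre eutopic replicate 2.

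Of the other positive genes, Nol3, which encodes an inhibitor of apoptosis with a CARD domain, was measured on all 12 arrays. It read -1.45, -1.74 and -1.82 in ERBOE lesions, against -2.38, -1.79 and -2.37 in PRCre lesions. In eutopic endometrium Nol3 read -3.77, -3.22 and -3.27 in ERBOE, against -2.54, -2.34 and -2.70 in PRCre, so the eutopic groups were apart and the lesion groups overlapped by 1 array. The interaction of Nol3 was 1.40 ± 0.32. Tnfrsf11b, the gene of osteoprotegerin, a decoy receptor for RANK ligand, was at 1.87 ± 0.52. It read 0.79, 0.00 and -0.53 in ERBOE lesions, all above the -1.67, -1.47 and -1.48 of PRCre lesions, while the eutopic groups overlapped, and its value within slide 2 was 0.36.

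Zfp819, a zinc finger gene, and Chrna1, the alpha subunit gene of the muscle acetylcholine receptor, were detected in ERBOE lesions alone on all arrays of a group. Zfp819 read -0.79, -2.32 and -1.55 in ERBOE lesions and was not well above background on any PRCre lesion array, so it was at least 11.1-fold higher in ERBOE lesions. Chrna1 read -1.61, -2.47 and -2.66 there, at least 6.47-fold higher than in PRCre lesions. Such bounds set the mean of the bright group against the lowest signal called above background on each array. In eutopic endometrium Zfp819 was above background on 2 of 3 ERBOE arrays and 1 of 3 PRCre arrays, and Chrna1 on 1 ERBOE array. The interactions were 3.94 ± 0.95 for Zfp819 and 3.15 ± 0.81 for Chrna1. C730002L08Rik, the gene with the smallest p (4.43 ± 0.78), was not above background in lesions or in ERBOE eutopic endometrium, and lacked a value on PRCre eutopic replicate 1. A530016L24Rik, at 3.21 ± 0.72, was not above background in eutopic endometrium.

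**Figure D2:**
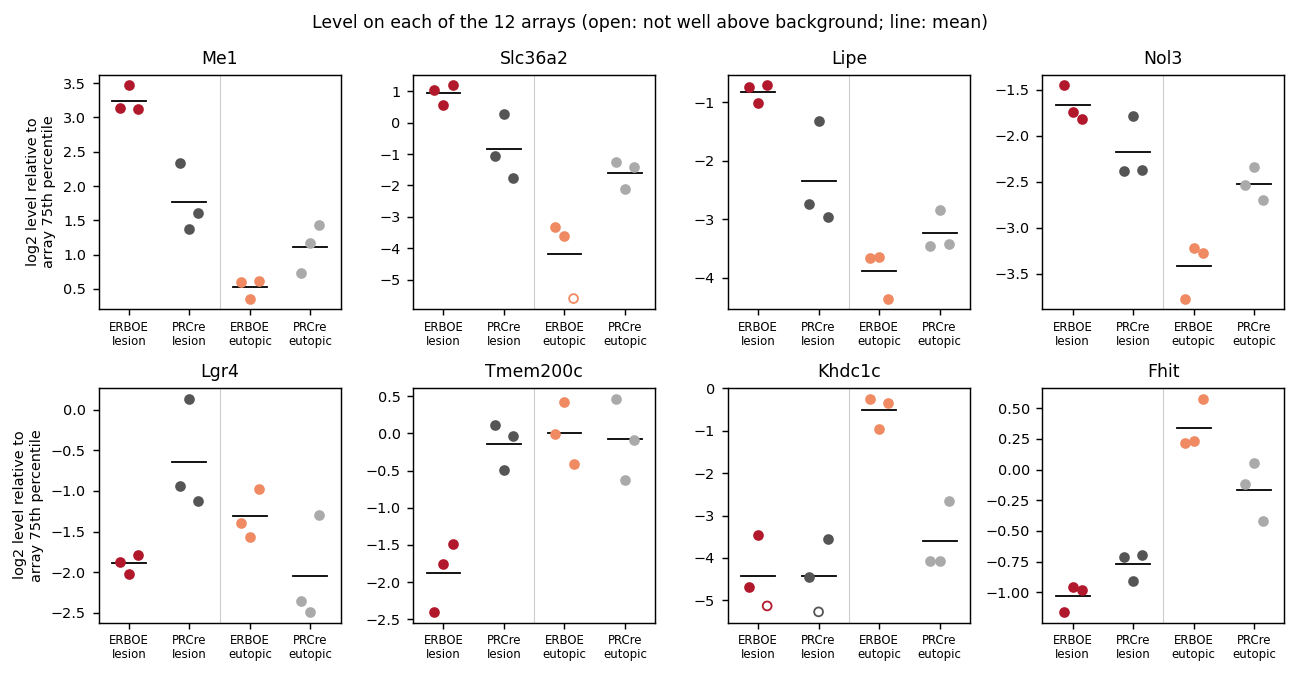
Level of 8 genes on each of the 12 arrays (y axis, log2 relative to the 75th percentile of the array), with ERBOE left of PRCre in each tissue, open circles for signals not well above background and lines for group means. Me1, Slc36a2 and Lipe are higher in ERBOE lesions and lower in ERBOE eutopic endometrium with no overlap; Fhit shows the opposite order.

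Readings near background differed in level between arrays, and so between group means, which bears on every dim gene here. The 9060 probes (16%) that were not above background on any of the 12 arrays had a median ERBOE minus PRCre difference of 0.53 in lesions and -0.74 in eutopic endometrium, and so a median interaction of 1.25. Their median level was -7.14, -6.36 and -6.12 in ERBOE lesions, against -7.75, -6.80 and -6.73 in PRCre lesions, and -7.72, -7.88 and -6.98 in ERBOE eutopic endometrium, against -6.72, -7.37 and -6.38 in PRCre eutopic endometrium. The groups overlapped in both tissues. Arrays with more probes well above background tended to have lower such levels. ERBOE lesion replicate 3 had 58.4% of probes well above background and a level of -6.12. ERBOE eutopic replicate 1 had 74.2% and -7.72. What sets these levels was not tested. Of the 309 positive features, 52 had a tissue in which no array of either genotype was above background, and of the 270 negative ones, 7 did. Among the 22367 features above background on all 12 arrays, 117 were positive at an unadjusted p under 0.05 (0.523%) and 86 negative (0.384%).

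A floor common to all arrays, at -4.16, was therefore applied as an alternative added after the data were seen. Me1 (2.06), Nol3 (1.40) and Tnfrsf11b (1.87) kept their values, Slc36a2 moved to 3.89 and Lipe to 2.11. Zfp819 moved to 2.60, Chrna1 to 1.91, A530016L24Rik to 1.73, Lncbate1 to 1.58, Gys2 to 1.20 and C730002L08Rik to 0.88. On the negative side Khdc1c stood at -3.05 and Nell1 at -2.30, while Vil1 moved to -0.66, Cadps to -1.0, 4933407L21Rik to -0.59, Rbm20 to -0.10 and Map3k15 to 0.00. With this floor 4 features passed in limma (smallest adjusted p 0.000405), Zfp819 among them, and all 4 had every eutopic array at the floor, so that the test there was of the lesion difference alone and the floor had removed the spread.

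**Figure D3:**
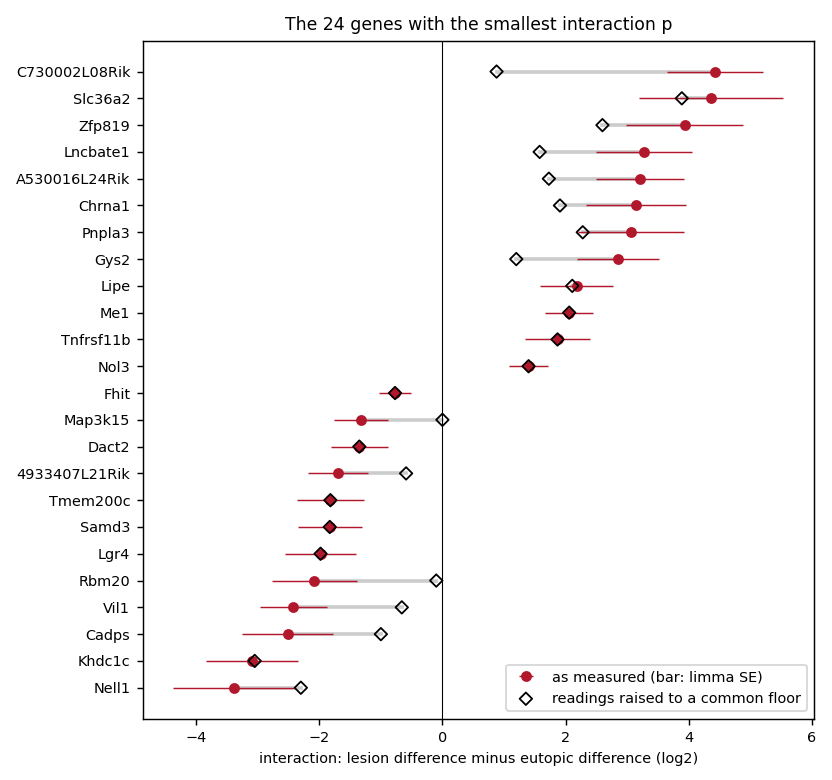
Interaction of the 24 genes of smallest p (x axis, log2; red points as measured with limma SE bars, open diamonds with readings raised to the common floor), ordered from highest to lowest down the page. Me1, Nol3, Tnfrsf11b, Lgr4, Tmem200c, Samd3, Dact2 and Fhit have both marks at the same place, while C730002L08Rik moves from 4.43 to 0.88 and Map3k15 from -1.32 to 0.00.

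Among negative interactions, Lgr4 and Tmem200c were measured on all 12 arrays. Lgr4 encodes a receptor for R-spondins that strengthens Wnt signalling. It read -1.87, -2.02 and -1.79 in ERBOE lesions, against -0.94, 0.14 and -1.12 in PRCre lesions. In eutopic endometrium it read -1.39, -1.57 and -0.97 in ERBOE, against -2.35, -2.49 and -1.29 in PRCre. The lesion groups of Lgr4 were apart and the eutopic groups overlapped. Its interaction was -1.98 ± 0.58, but its other probe, also above background on 12 arrays, gave -0.16. Tmem200c, a transmembrane protein gene, read -2.40, -1.75 and -1.49 in ERBOE lesions, against 0.11, -0.49 and -0.04 in PRCre lesions. Its eutopic levels lay between -0.62 and 0.47 in both genotypes, and the interaction was -1.82 ± 0.55.

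Khdc1c, of a family known from oocytes, read higher in ERBOE eutopic endometrium. It read -0.24, -0.96 and -0.34 in ERBOE eutopic endometrium, against -4.08, -4.07 and -2.66 in PRCre, a difference of 3.09 ± 0.53 (limma adjusted p = 0.635). Its lesion levels of -4.68, -3.45 and -5.13 in ERBOE and -4.44, -5.27 and -3.55 in PRCre overlapped, with a difference of 0.00 ± 0.53. The Khdc1c interaction was -3.09 ± 0.75. Nell1, a secreted osteogenic protein gene, was at -3.39 ± 0.98 with 1 of 3 ERBOE lesion arrays above background and -1.16 for its other probe. Dact2, which encodes an inhibitor of Wnt and Nodal signalling, was at -1.35 ± 0.46. Samd3, a gene of NK and T cells, was at -1.83 ± 0.52, but its other probes gave -2.62 and 2.29, above background on 7 and 4 of the 12 arrays.

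Fhit, the tumour suppressor gene of a diadenosine triphosphate hydrolase, had a small but tight interaction. It read -1.16, -0.96 and -0.98 in ERBOE lesions, against -0.71, -0.91 and -0.70 in PRCre lesions. In eutopic endometrium Fhit read 0.22, 0.23 and 0.58 in ERBOE, against -0.12, 0.05 and -0.42 in PRCre. The groups were apart in both tissues, in opposite directions, and the interaction was -0.77 ± 0.26, with -0.30 and -0.66 for its other probes. Phactr3, a phosphatase and actin regulator gene, showed the same order on 12 arrays above background, at -1.10 ± 0.46. Vil1, the villin gene of microvilli, also ran in opposite directions at -2.42 ± 0.55, but near background. It was above background on 0 ERBOE lesion, 3 PRCre lesion, 3 ERBOE eutopic and 1 PRCre eutopic arrays. Dmxl1 (-1.94, or -0.57 with the common floor) and A330001L22Rik (-1.19, or -0.38) were opposed in the same way and were likewise near background. Dmxl1 was above background on 0 ERBOE lesion, 3 PRCre lesion, 3 ERBOE eutopic and 0 PRCre eutopic arrays. Near background too were 4933407L21Rik (-1.70), Cadps (-2.51), Map3k15 (-1.32) and Rbm20 (-2.08).

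The 38 gene lists were described by their members' values, with 20 lists of cell types and 18 of pathways. No member of any list passed. Adipocyte markers had the most positive median interaction and NK markers the most negative, and in both lists the lesion difference had the larger median in size. Cell-cycle and interferon genes had medians of similar size and the same sign in the 2 tissues.

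**Figure D4:**
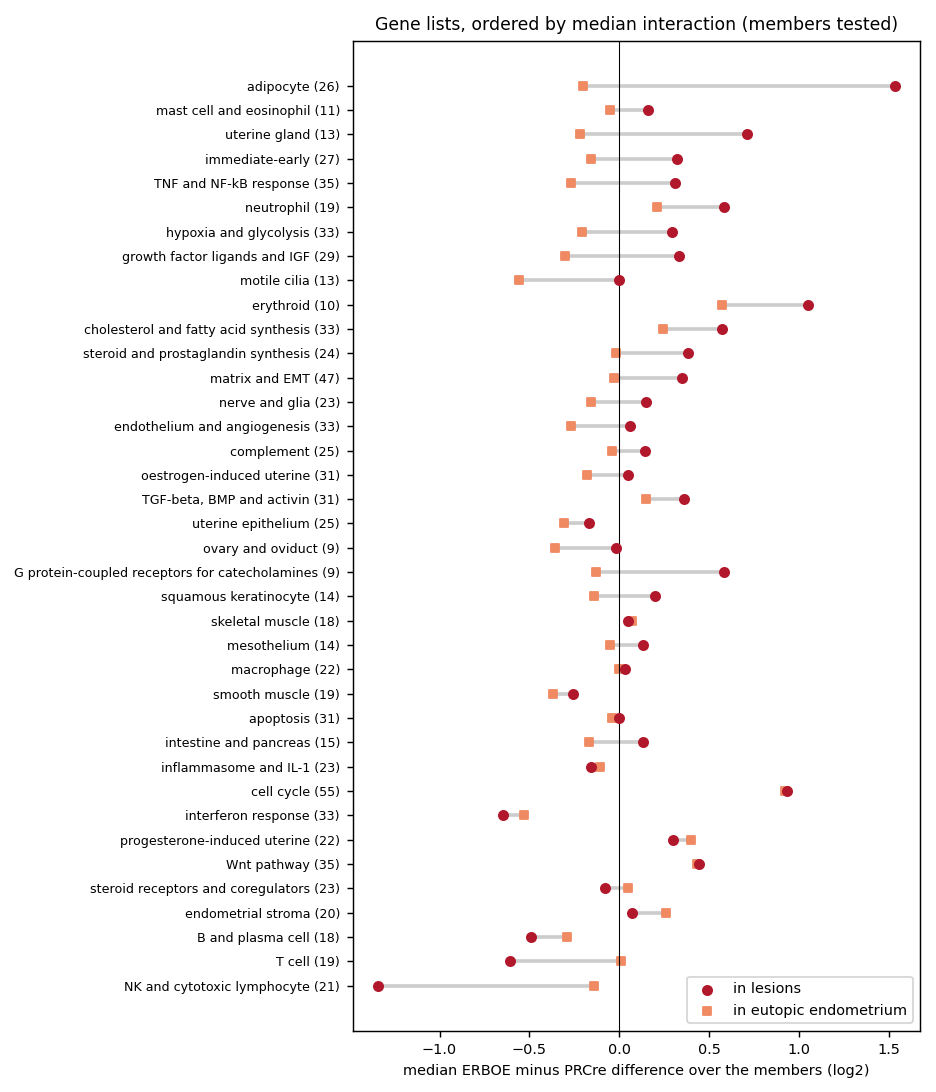
Median ERBOE minus PRCre difference over the members of each list in lesions (red circles) and in eutopic endometrium (orange squares), on a log2 x axis, with the members tested in brackets and lists ordered by median interaction. The circles and squares lie far apart for adipocyte markers (1.53 and -0.20) and NK markers (-1.34 and -0.14) and together for cell-cycle genes (0.93 and 0.92).

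All 26 adipocyte markers tested had a positive interaction, with a median of 1.65, and 4 had an unadjusted p under 0.05, where 0.923% of all features were positive at that level. The 4 were Lipe, given above, Slc2a4, the insulin-responsive glucose transporter gene (1.55 ± 0.51), Gpd1, the glycerol-3-phosphate dehydrogenase gene (2.59 ± 0.95), and Plin4, a lipid droplet coat gene (1.94 ± 0.83). Adipoq, the adiponectin gene, had a larger error at 2.40 ± 2.18. The median difference was 1.53 in lesions (25 of 26 positive) and -0.20 in eutopic endometrium (9 of 26). The mean level of the list was 2.76, 2.70 and 3.07 in ERBOE lesions, against 1.33, 2.53 and 0.66 in PRCre lesions, so the lesion groups did not overlap but PRCre lesion replicate 2 came close. In eutopic endometrium it was 0.03, -1.49 and -1.73 in ERBOE, against -0.16, -1.12 and -1.38 in PRCre, with overlap and far below the lesions.

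The summed signal of the adipocyte list, in units of the 75th percentile, ran from 749 to 983 in ERBOE lesions, from 200 to 609 in PRCre lesions, from 72 to 117 in ERBOE eutopic endometrium and from 71.6 to 101 in PRCre eutopic endometrium. On every lesion array all 26 markers were above background, and on the eutopic arrays 23 to 26 were. In whole tissue, more cells of a type and more RNA per cell cannot be told apart. The median was 2.20 without PRCre lesion replicate 2 and 1.02 without PRCre eutopic replicate 1. With slide as a block it was 1.68, but within slide 2 alone it was -0.08, where PRCre lesion replicate 2 is 1 of the 2 PRCre lesion arrays.

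Genes of cholesterol and fatty acid synthesis were positive for 27 of 33, with a median of 0.42 and 3 positive at an unadjusted p under 0.05, where 0.923% of all features were. They were Me1, Acss2, the cytosolic acetyl-CoA synthetase gene (1.20 ± 0.45), and Acly, the ATP citrate lyase gene (0.77 ± 0.32). Acly read 4.64, 5.05 and 4.37 in ERBOE lesions, against 3.91, 3.58 and 3.96 in PRCre lesions, while its eutopic levels lay between 3.35 and 3.67 in both genotypes. Scd1, the stearoyl-CoA desaturase gene, was at 1.72 ± 0.85 and belongs to the adipocyte list too. The list median was 0.10 without PRCre lesion replicate 2, 0.81 without ERBOE eutopic replicate 3 and 1.02 within slide 2. Of 9 catecholamine receptor genes 6 were positive, with a median of 0.17. Adra1d, an alpha-1 receptor gene, was at 1.41 ± 0.56, or 0.85 with the common floor, and was above background on 3 ERBOE lesion, 1 PRCre lesion, 2 ERBOE eutopic and 0 PRCre eutopic arrays. Adrb3, the beta-3 receptor gene of fat cells, was at 1.85 ± 1.04, Adra2c at -1.19 ± 1.01 and Adrb1 at -0.47 ± 0.46.

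NK and cytotoxic lymphocyte markers were negative for 20 of 21, with a median of -1.27 and 5 at an unadjusted p under 0.05 (Klrk1, Klri2, Klra4, Klra7 and Klra9), where 0.807% of all features were negative at that level. The differences were -1.34 in lesions (21 of 21 negative) and -0.14 in eutopic endometrium (14 of 21 negative). Klrk1, the gene of the activating receptor NKG2D, read -2.06, -0.82 and -1.68 in ERBOE lesions, against -0.97, 0.83 and -0.20 in PRCre lesions. In eutopic endometrium Klrk1 read -0.58, 0.15 and -0.32 in ERBOE, against -0.33, -0.68 and -0.22 in PRCre. The lesion groups overlapped by 1 array and the eutopic groups overlapped, with an interaction of -1.57 ± 0.61. The Ly49 receptor genes Klra9 and Klra4 were at -1.27 ± 0.52 and -1.59 ± 0.69, and Klri2, dim on most arrays, at -1.67 ± 0.65 and at 0.00 with the common floor. Probes of the Klra genes may share signal between close paralogues, which was not tested. Granzyme genes varied more, from Gzme at -3.18 ± 1.71 to Gzmd at 0.16 ± 1.78.

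The mean of the NK list was -3.50, -0.94 and -3.02 in ERBOE lesions, against -1.29, -1.32 and -0.60 in PRCre lesions. It was -1.91, -0.76 and -1.89 in ERBOE eutopic endometrium, against -1.39, -1.59 and -0.50 in PRCre. ERBOE lesion replicate 2 thus lay among the PRCre lesions, and the other 2 ERBOE lesion arrays lay below all 10 remaining arrays. The median interaction was -2.03 without ERBOE lesion replicate 2, -0.52 within slide 2 alone, and between -2.03 and -0.71 over the 31 alternatives. T cell genes were negative for 17 of 19, with a median of -0.67, 0 at an unadjusted p under 0.05, and Tcf7, Lck, Cd2 and Zap70 at -1.42, -1.29, -1.42 and -1.05. That median was 0.29 without PRCre lesion replicate 2, whose T cell mean was 1.20, beside -0.98 and -1.52 on the other PRCre lesion arrays, and -1.20 without PRCre lesion replicate 3. B and plasma cell genes had a median of -0.23, which ran from -0.90 without PRCre lesion replicate 3 to 0.17 without PRCre lesion replicate 2. Macrophage markers had a median of 0.09 with 12 of 22 positive, which ran from -0.5 to 0.62 with 1 array left out. Within slide 2 the T cell, B and plasma cell and macrophage medians were -0.91, -1.91 and -0.99. Vsig4, a complement receptor gene, stood at 4.10 ± 1.01, or 0.58 with the common floor.

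**Figure D5:**
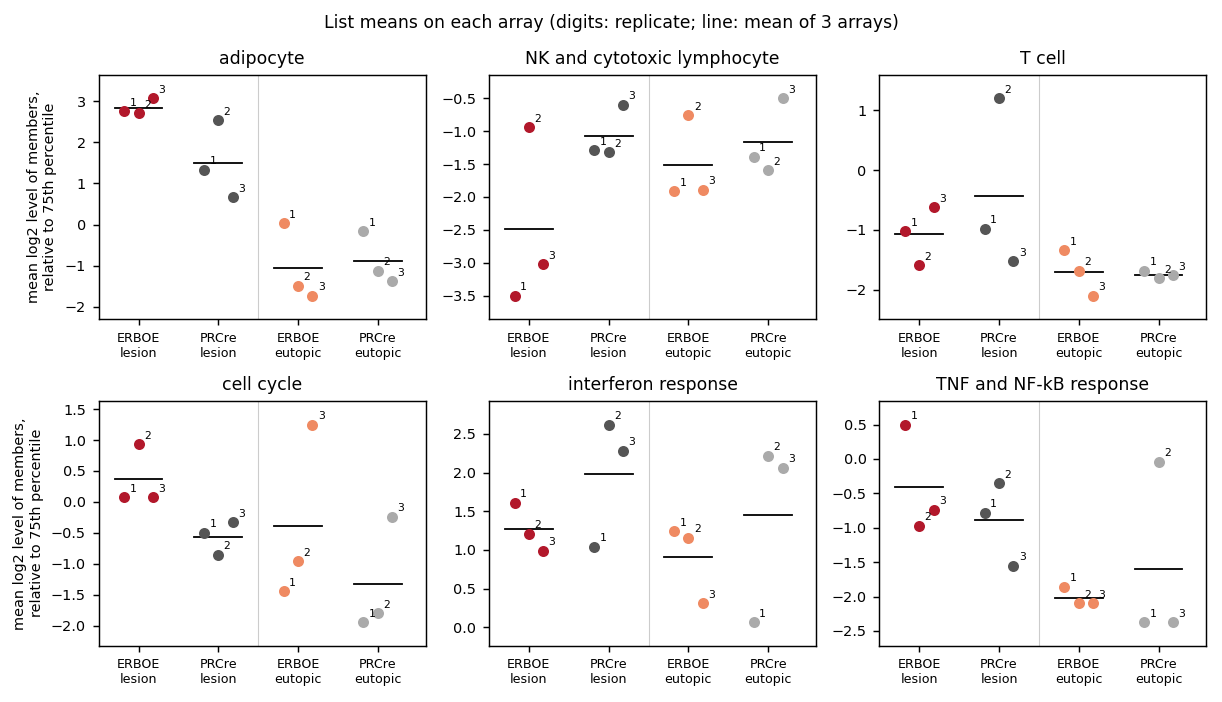
Mean level of the members of 6 lists on each array (y axis, log2 relative to the 75th percentile), with ERBOE left of PRCre in each tissue, digits for replicates and lines for group means. Adipocyte means are highest in ERBOE lesions (2.70 to 3.07), and single arrays lead the T cell list (PRCre lesion replicate 2 at 1.20) and the cell-cycle list (ERBOE eutopic replicate 3 at 1.25).

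Of 35 TNF and NF-kB response genes 26 were positive, where 43.3% of all features were (median 0.70, or 0.27 over the 21 above background on all arrays). The neutrophil chemokine genes Cxcl3 and Cxcl2 stood at 5.11 ± 1.46 and 3.53 ± 1.71, or 2.13 and 2.72 with the common floor, and Il6 at 2.72 ± 1.41, or 0.86 with the floor. Ccl5, a T cell chemokine gene, stood at -2.58 ± 1.24, with a level of 7.18 on PRCre lesion replicate 2 beside 2.35 and 3.27 on the other PRCre lesion arrays. Immediate-early genes were positive for 23 of 27 (median 0.71), with the phosphatase gene Dusp1 at 1.74 ± 0.86 and the bZIP factor genes Maff, Fosl2 and Fosb at 1.97, 0.88 and 1.72. Hypoxia and glycolysis genes were positive for 30 of 33 (median 0.51), with Adm, the adrenomedullin gene, at 1.26 ± 0.49, Ndrg1 at 1.55, the mitophagy gene Bnip3 at 1.45 and the aldolase gene Aldoa at 0.73. With 1 array of the 4 groups left out, the TNF median ran from 0.00 (without PRCre eutopic replicate 2) to 1.12 (without PRCre lesion replicate 2), the immediate-early median from 0.35 (without ERBOE lesion replicate 1) to 0.82 and the hypoxia median from 0.17 (without PRCre eutopic replicate 2) to 0.72. Within slide 2 the TNF, immediate-early and hypoxia medians were -0.67, -0.41 and 0.01.

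Growth factor ligands were positive for 25 of 29 (median 0.47), with Fgf7, a stromal ligand for epithelium, at 1.05 ± 0.46, Igfbp2 at 1.83 ± 1.13 and the IGF receptor gene Igf1r at 0.81 ± 0.54. Ereg, the epiregulin gene, stood at 3.03 ± 0.69, but it was below background in eutopic endometrium and at 0.32 with the common floor. Matrix genes were positive for 37 of 47 (median 0.32), with Itgav, the integrin alpha V gene, at 0.80 ± 0.31, Postn at 1.39 and Thbs1 at 1.38, and the collagenase gene Mmp13 at 3.05, or 0.51 with the floor. Endothelial genes were positive for 27 of 33 (median 0.31), with the lymphangiogenic factor gene Vegfd at 1.59 ± 0.64, Lyve1 at 0.85, Tek at 0.79 and Ecscr at 0.51. Vegfd read 0.75, 2.06 and 0.44 in ERBOE eutopic endometrium, all below the 2.49, 2.70 and 2.31 of PRCre, while the lesion groups overlapped. With 1 array of the 4 groups left out, the growth factor median ran from 0.29 (without PRCre lesion replicate 2) to 0.79 (without ERBOE eutopic replicate 2). The matrix median ran from 0.18 (without PRCre eutopic replicate 1) to 0.56 (without ERBOE lesion replicate 2), and the endothelial median from 0.03 (without PRCre eutopic replicate 1) to 0.59 (without ERBOE eutopic replicate 2). Within slide 2 the growth factor, matrix and endothelial medians were 0.38, 0.74 and 0.38.

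In the Wnt list 16 of 35 were positive (median -0.17), with medians of 0.44 in lesions and 0.43 in eutopic endometrium. Its Sfrp5, a secreted Wnt inhibitor gene, stood at 1.34 ± 0.51, the receptor gene Fzd4 at 0.99 ± 0.46 and the ligand gene Wnt7b at 1.87 ± 0.97. Among TGF-beta, BMP and activin genes (19 of 31 positive, median 0.20), the BMP antagonist gene Grem1 stood at 1.85 ± 0.63, or 0.91 with the floor, Tgfb3 at 0.85, Bmp2 at 0.80 and Gdf10 at -1.27. Cell-cycle genes had a median ERBOE minus PRCre difference of 0.93 in lesions (55 of 55 positive) and 0.92 in eutopic endometrium (53 of 55), with a median interaction of 0.00 and 29 positive. The list mean was -1.44, -0.96 and 1.25 in ERBOE eutopic endometrium, against -1.94, -1.80 and -0.24 in PRCre, so the eutopic groups overlapped, and the median eutopic difference was -1.21 within slide 2 and 2.02 within slide 3. Cenpa, a centromere histone gene, stood at 0.73, the kinetochore genes Ndc80 and Ttk at -1.03 and -1.02, and Hells, a chromatin remodeller gene, at -0.67. Without ERBOE eutopic replicate 3 the median interaction was 0.82, and without ERBOE eutopic replicate 1 or PRCre eutopic replicate 3 it was -0.54. Within slide 2 the cell-cycle median was 1.94. Interferon response genes had negative median differences, -0.65 in lesions (33 of 33 negative) and -0.53 in eutopic endometrium (32 of 33). Of all features, 44.1% were positive in lesions and 49% in eutopic endometrium. The list mean was 1.61, 1.21 and 0.99 in ERBOE lesions, against 1.04, 2.62 and 2.28 in PRCre lesions. In eutopic endometrium it was 1.24, 1.16 and 0.31 in ERBOE, against 0.07, 2.22 and 2.06 in PRCre, so the groups overlapped in both tissues. The median interaction of the list was -0.06, with Cxcl9, Cxcl10, Gbp4 and Iigp1 at -1.64, -1.25, -0.73 and -0.85. That median was 0.60 without PRCre eutopic replicate 1 and -0.49 without PRCre lesion replicate 1.

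The remaining lists had medians between -0.21 and 0.92. Mast cell and eosinophil markers (0.92, 9 of 11 positive), uterine gland markers (0.82, 10 of 13), neutrophil markers (0.66, 14 of 19) and motile cilia genes (0.46, 11 of 13) were the most positive of them. In the cilia list Cfap44, at 4.97 ± 1.52 or 1.75 with the common floor, had its probe above background on 2 PRCre eutopic arrays and another of its probes on 1 PRCre lesion array. The mast cell median ran from 0.45 without PRCre lesion replicate 3 to 1.35 without PRCre lesion replicate 1, and the gland median from 0.16 without ERBOE lesion replicate 2 to 1.46 without ERBOE eutopic replicate 2. Neutrophil markers had a median of -0.34 without PRCre eutopic replicate 2 and 1.74 without ERBOE eutopic replicate 1. Within slide 2 the mast cell and neutrophil medians were negative, at -0.26 and -0.73. Oestrogen-induced uterine genes had a median of 0.23 (19 of 31) and progesterone-induced genes of -0.07 (11 of 22). Epithelial markers stood at 0.17 (18 of 25), endometrial stroma at -0.21 (6 of 20) and smooth muscle at 0.08 (11 of 19). With 1 array left out, the progesterone-induced median ran from -0.54 to 0.47, the stroma median from -0.53 to 0.05 and the smooth muscle median from -0.32 to 0.53. Within slide 2 the stroma, smooth muscle and oestrogen-induced medians were 0.36, 0.61 and 0.87. Leaving out 1 array moved the epithelial median to between -0.28 (PRCre eutopic replicate 2) and 0.83 (PRCre eutopic replicate 1), and the oestrogen-induced median to between -0.08 (ERBOE eutopic replicate 2) and 0.72 (PRCre eutopic replicate 1). Erythroid markers (0.43, but -0.15 without PRCre eutopic replicate 3, 1.68 without PRCre eutopic replicate 2 and 2.25 within slide 2), steroid and prostaglandin synthesis (0.42), nerve and glia (0.32), complement (0.30), ovary and oviduct (0.17), squamous keratinocyte (0.15), skeletal muscle (0.14), mesothelium (0.12), apoptosis (0.06), intestine and pancreas (0.03) and inflammasome genes (0.02) made up the rest.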

How the data were processed

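RNA pools were labelled with Cy3 and hybridised to 1-colour Agilent mouse arrays, 18 in all, per the labels' protocols. The deposited scanner files hold spot intensity, background-subtracted and detrended within the array by Feature Extraction per the file headers and not normalised between arrays. The authors' deposited value table holds log2 values centred per probe, correlated at 0.993 to 0.997 with centred scanner values. Its scaling between arrays is unknown.

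Control and outlier spots were left out, log2 processed intensity was taken and the 75th percentile of each array subtracted. Probes well above background on at least 3 of 18 arrays were kept, named through the RefSeq gene table of GRCm38.p6 (32994 of 56605 probes), and the brightest probe stood for a gene, for 33468 features, 18027 of them with a symbol. One limma fit (limma 3.58.1, R 4.3.3) held the means of 6 groups over all 18 arrays. The 6 uterus arrays, from mice of 12 weeks without surgery, entered only the spread. Tests were 2-sided with Benjamini-Hochberg adjustment at 0.05. The fit was also run on simulated data with independent noise, which lack the slide and background differences of these arrays. The number of arrays limits the precision, and 1905 features lacked a value on at least 1 array. With 3 arrays against 3 an exact permutation test cannot go below 0.1. No array column was left unused. The normexp alternative used median spot signals in place of the mean signals planned.

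Replicate numbers were not taken as pairs: same-numbered arrays deviated together (r over 0.1) in 8 of 18 pairs, from -0.353 to 0.345. The text names Esr2, Esr1 and Pgr, the 12 genes of smallest p each way with a symbol and detection on 3 arrays of a group, 5 opposed genes each way, and up to 4 members of smallest p in a list, plus Adipoq, Klra7, Gzme and Gzmd, chosen after their values were seen. The comparison, the lists and the rule were chosen with earlier results of these data known. Alternatives covered the arrays fitted, dim-probe filters, background correction, scaling, slide and replicate blocks, the spread model, array weights and leaving out each array.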

Additional observations from a re-analysis of the deposited data

Results flagged for a closer look

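In 10 named genes every ERBOE array lay on one side of every PRCre array in lesions and on the opposite side in eutopic endometrium. The naming rule took a fixed number of such genes each way, so the count of 10 is set by that rule. Of all 33468 features, 27 (0.0807%) had ERBOE above PRCre in lesions and below it in eutopic endometrium, and 24 (0.0717%) had the opposite. The interaction itself was tested in limma and passed in none of the 10 named genes. Higher in ERBOE lesions and lower in ERBOE eutopic endometrium were Me1 (2.06), A530016L24Rik (3.21), Lncbate1 (3.27), Slc36a2 (4.37) and Lipe (2.18). The opposite order held for Vil1 (-2.42), Fhit (-0.77), Dmxl1 (-1.94), Phactr3 (-1.10) and A330001L22Rik (-1.19). Me1, Lipe, Fhit and Phactr3 were above background on all 12 arrays, and the other 6 were not. In eutopic endometrium A530016L24Rik was above background on no array and Lncbate1 on 1. With the common floor the eutopic difference was 0 for A530016L24Rik, Lncbate1 and Dmxl1, the lesion difference was 0 for Vil1, and these 4 were then no longer opposed. Groups of 3 arrays are too small for a test of single outlying arrays.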

How the results depend on the processing

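The count of interaction calls was 0 under every alternative except the common floor, where it was 4. Lesion calls, 0 as reported, were 1 with features above background on all 12 arrays, 2 with normexp, 1 with a trend and robust variance, 6 with array weights, 2 without replicate 2 of PRCre lesions and PRCre eutopic endometrium, and 15 with the common floor. Leaving out 1 array gave 0 to 5 lesion calls (5 without ERBOE lesion replicate 3) and 0 to 3 eutopic calls (3 without PRCre eutopic replicate 1), and the common floor gave 1 eutopic call. Opposed features numbered 133 with no filter on dim probes, against 51. Unadjusted counts were 309 positive and 270 negative, but 4148 and 269 with no filter, 533 and 77 with normexp, and 700 and 954 with array weights. The share of positive interactions was 43.3%, against 54.6% with no filter and 59.5% with normexp.

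With the replicate block the interaction had 0 calls, with 350 positive and 295 negative at an unadjusted p under 0.05. Same-numbered arrays of PRCre lesions and PRCre eutopic endometrium deviated together (r 0.138 to 0.345) and different-numbered ones did not (-0.235 to -0.00592), but no other combination of 2 groups had all 3 same-numbered pairs over 0.1, so the numbers were not taken as pairs.

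Leaving out a uterus array or changing the spread model does not change the group means that enter a probe's interaction. The 2961 alternative values for 93 named results include such settings, so their number does not measure how stable the signs are. Of these values, 31 had the opposite sign or were 0, in 19 genes, and the cause was not tested. Within slide 2 they were Esr1 at 0.69, Pgr at 1.28, Plin4 at -0.02, Adrb3 at -0.61, Adra2c at 0.91, Dusp1 at -0.04, Maff at -1.34, Ndrg1 at -0.24, Igf1r at -0.72, Thbs1 at -0.54, Ndc80 at 1.79 and Gbp4 at 1.28. With normexp they were Klri2 at 0.02, Ndc80 at 0.15 and Ttk at 0.22. With the common floor Ndc80 and Ttk were at 0.43 and Klri2 and Esrrb at 0.00, and in the authors' deposited table Ttk was at 0.74. Other probes gave 0.05 for Esr1, 1.32 and 1.21 for Ttk and 2.29 for Samd3. Leaving out 1 array gave Esr1 0.05 (PRCre lesion 3), Hells 0.07 (ERBOE eutopic 3), and Cxcl9 0.36 and Iigp1 0.16 (PRCre lesion 2). The lowest values with 1 array left out were -1.24 for Hells, -2.70 for Cxcl9, -1.46 for Gbp4, -1.74 for Iigp1 and -0.72 for Esr1. Without replicate 2 of both PRCre groups Cxcl9 was at 0.16, Gbp4 at 0.22 and Iigp1 at 0.20. That setting and the common floor were chosen after seeing the data. Raising readings to the common floor of -4.16 removed by construction any difference between readings below it. This included readings called above background: Vil1 was above background on 3 PRCre lesion arrays, with a group mean of -4.55, and its lesion difference became 0. The floor values therefore cannot tell whether background accounts for the interactions of dim genes, which was not tested.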
